A study of Homo sapiens with 2 samples.

Results

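The genes described here are the ZNF genes, human zinc finger genes named ZNF with a number and at most 1 letter, that had called clusters in both of the study's libraries. There were 286 of them among the 7218 genes listed in both libraries, and 1 further gene of this name pattern was not analysed here. They were chosen by name and by being listed in both libraries, so having reads in both is a condition of the choice and not a result.

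The libraries were made by PAR-CLIP, a form of crosslinking and immunoprecipitation in which 4-thiouridine in RNA is crosslinked to a bound protein and is read afterwards as a T-to-C conversion. Reads that overlap are grouped into clusters, and a cluster marks a stretch of RNA that was recovered with the protein. One library was made with Flag/HA-ZC3H7B and the other with Flag/HA-ZC3H7A, a pair of related CCCH zinc finger proteins that bind RNA. Both were made in HEK293, a line derived from human embryonic kidney. In both, the tagged protein was overexpressed by 24 h of doxycycline at 1 µg/mL, the cells were fed 100 µM 4-thiouridine for 16 h, and they were irradiated at 365 nm. There was 1 library per protein, with no untreated, untagged or input library, so no difference between the proteins was tested and no p-value is given. Fewer transcript copies and less binding per copy cannot be told apart in such data, because RNA levels were not analysed here.

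ZNF genes form one of the largest families of the human genome. Most of their proteins carry arrays of C2H2 zinc fingers, each a short fold around a zinc ion, which read DNA sequence base by base. Many also carry a KRAB domain, which recruits the corepressor TRIM28 and, through it, the histone methyltransferase SETDB1, and these proteins silence transposable elements and genes. KRAB genes arose by repeated tandem duplication and lie in long runs of neighbouring copies, and because their coding sequences repeat the same finger and linker, reads from such copies can be uncertain between paralogs. Some ZNF proteins have other roles, in RNA processing, ribosome assembly or the mitotic spindle. The numbers of fingers and the presence of a KRAB domain were not analysed here.

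The ZC3H7B library held 2409465 reads on genes, made of 1212989 distinct reads, and the ZC3H7A library 3779662 reads, made of 300342 distinct reads. A distinct read was thus counted 1.99 times on average in the ZC3H7B library and 12.6 times in the ZC3H7A library, so reads in the ZC3H7A library are largely repeats of the same sequences. All intervals are exact 95% intervals and cover counting error only. They treat reads as independent, and for the repeated reads they are too narrow. Of 6 genes listed as HEK293 markers, LIN28B, NEFL and SALL2 had clusters in both libraries, and PAX2, LHX1 and NEFM had none in either. Of 5 markers of other cells none had a cluster in either library.

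ZNF genes took a smaller part of the reads in the ZC3H7B library than in the ZC3H7A library, and a pair of genes, ZNF711 and ZNF529, carried most of the gap. They held 109977 reads, or 4.56% (4.54 to 4.59%), in the ZC3H7B library, and 206765 reads, or 5.47% (5.45 to 5.49%), in the ZC3H7A library, a difference of -0.906 percentage points. Without ZNF711 the shares were 4.20% and 4.57% (-0.367 points), and without ZNF529 as well 4.11% and 4.29% (-0.179 points), both left out after their values were seen. In distinct reads the shares were 4.52% and 5.26%, and in clusters 4.52% (4513 clusters) and 5.07% (2628 clusters). They made up 3.12% and 3.49% of the genes listed, so in each library their part of the reads was above their part of the genes. The median ZNF gene had 166.5 reads, 88 distinct reads and 12 clusters in the ZC3H7B library, against 128 reads, 73 distinct reads and 9 clusters for the median of the other genes listed in both. In the ZC3H7A library it had 231.5 reads, 21 distinct reads and 6 clusters, against 167, 16 and 4 for the other genes. A single cluster was all that 16 ZNF genes (5.59%) had in the ZC3H7B library and 36 (12.6%) in the ZC3H7A library, and among the other genes these shares were 10.1% and 19.7%.

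One gene stood far above the rest of the family. ZNF711, a transcription factor gene that is mutated in intellectual disability, had 8675 reads in the ZC3H7B library and 33979 in the ZC3H7A library, where it ranked 3 and 2 among all genes. It alone held 7.89% of the ZNF reads in the ZC3H7B library and 16.4% in the ZC3H7A library. Its clusters numbered 30 and 49 and were spread over the transcript, with 11 and 14 coding ones, 7 and 18 3' UTR ones and 3 and 7 intronic ones. Relative to the median gene its log2 ratio of reads, ZC3H7B over ZC3H7A, was -1.48 (-1.51 to -1.44). It was -1.27 in distinct reads and 0.21 in mean reads per cluster, so its clusters in the ZC3H7A library were more numerous and no deeper relative to the median gene.

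Behind ZNF711, the best covered ZNF transcripts were largely common to the libraries. Of the 10 ZNF genes with the most reads, 7 were the same in both. ZNF146, whose protein consists almost wholly of zinc fingers, had 3789 reads in the ZC3H7B library and 4156 in the ZC3H7A library. ZNF529 had 2207 and 10581 reads, ZNF507 2574 and 4669, ZNF850 2296 and 3306, and ZNF24, a transcription factor with a SCAN domain, 2050 and 4166. ZNF292, a large nuclear protein gene mutated in neurodevelopmental disorders, had 2103 and 3397 reads. ZNF664 (2348 and 2145 reads), ZNF585A (1894 and 2942) and ZNF644, which encodes a partner of the histone methyltransferases G9a and GLP (1823 and 2679), were among the leading 10 in the ZC3H7B library only. ZNF420, a KRAB protein that restrains p53 (1211 and 4929), ZNF460 (1571 and 3748) and ZNF175 (379 and 3356) were so in the ZC3H7A library only. Among the leading 13 genes ZNF175, ZNF529, ZNF711 and ZNF420 were the ones with an interval beyond 2-fold, all towards the ZC3H7A library. Over all genes compared, 18.2% were called towards ZC3H7B and 18% towards ZC3H7A. ZNF175 and ZNF420 are in this set only through their ZC3H7A reads, so their direction is partly set by the choice. With distinct reads ZNF420 no longer had such an interval. By mean reads per cluster ZNF711 and ZNF420 had none, and ZNF146 and ZNF664 had one towards ZC3H7B.

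**Figure D1:**
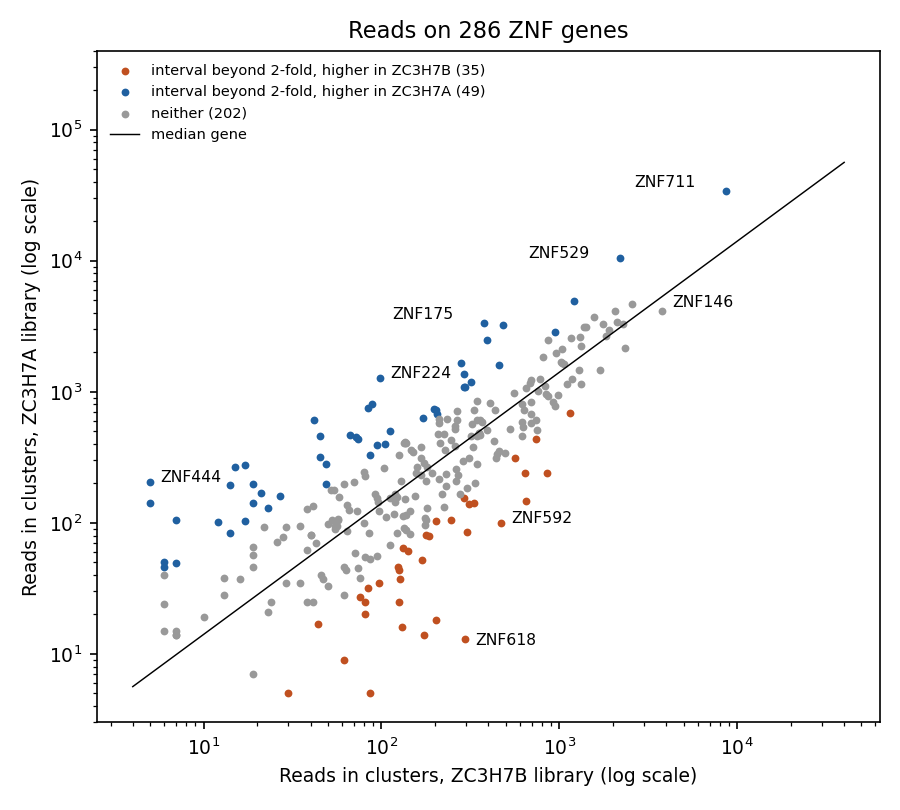
Reads in clusters on each of the 286 ZNF genes, with the ZC3H7B library on the x axis and the ZC3H7A library on the y axis, both on log scales. Each point is a gene, coloured by whether its exact interval lay beyond 2-fold of the median gene (line); 35 genes were higher in the ZC3H7B library and 49 in the ZC3H7A library, and ZNF711 stands at the upper right with 8675 and 33979 reads.

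Across the family, reads were compared gene by gene as the log2 ratio of ZC3H7B over ZC3H7A, scaled so that the median of the 7168 genes with at least 20 reads summed was 0. A gene was called higher in a library where its whole interval lay beyond 2-fold. All 286 ZNF genes passed the minimum of 20 reads. Of them, 35 (12.2%) were higher in the ZC3H7B library and 49 (17.1%) in the ZC3H7A library, beside 18.2% and 18% of all genes compared. The share towards ZC3H7A was therefore close to the background, and the share towards ZC3H7B was below it. The ZNF median was -0.19, with quartiles at -0.97 and 0.76, against quartiles of -1.05 and 1.03 for all genes. In distinct reads 10 and 29 genes were called, beside a background of 7.28% and 10.1%, and the ZNF median was -0.018. Of these, 10 and 28 had been called with reads as well. By mean reads per cluster 12 and 13 were called, beside 6.18% and 4.65%, and by clusters 2 and 1, beside 0.321% and 0.223%. Scaled by library totals instead of the median gene, 45 and 41 genes were called, beside 21.2% and 15.5%, so which library holds more of the called ZNF genes depends on the scaling. Across the 286 genes log2 reads in the libraries correlated with Pearson's r of 0.76 and Spearman's rho of 0.772, and across the other 6932 genes with 0.70 and 0.707. These coefficients describe genes that share libraries and are not independent replicates.

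Of the ZNF genes whose reads came to 100 or more over both libraries, the 5 farthest towards ZC3H7B had 1 or 2 clusters in the ZC3H7A library. ZNF618, which encodes a partner of UHRF2, had 296 reads in 26 clusters in the ZC3H7B library, all of them in the 3' UTR, and 13 reads in 1 cluster, also in the 3' UTR, in the ZC3H7A library. Its log2 ratio was 5.002 (4.21 to 5.93). ZNF620 had 174 reads in 13 clusters and 14 reads in 1 cluster, a log2 ratio of 4.13 (3.34 to 5.03), and 11 of the 13 lay in the 3' UTR. ZNF23 had 202 and 18 reads, a log2 ratio of 3.98 (3.28 to 4.76), and ZNF484 had 130 and 16 reads, a log2 ratio of 3.52 (2.76 to 4.36). In place these genes differ from ZNF618: in the ZC3H7B library, 7 of 13 ZNF23 clusters and 9 of 14 ZNF484 clusters were coding. The fifth of them, ZNF576, had 125 and 25 reads, a log2 ratio of 2.81 (2.19 to 3.50), with all 11 of its ZC3H7B clusters in the 3' UTR. In the ZC3H7A library ZNF618, ZNF620, ZNF23 and ZNF484 had 2 distinct reads each and ZNF576 had 4, so their level there rests on very few distinct reads. With distinct reads all of these but ZNF576 kept an interval beyond 2-fold, and by mean reads per cluster none of the 5 did. They were picked by their read ratios, so the choice sets their direction and partly their calls in distinct reads. Over all genes compared 7.28% were called towards ZC3H7B in distinct reads.

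The 5 farthest towards ZC3H7A, by the same minimum, had 5 to 17 reads in the ZC3H7B library. ZNF444 had 5 reads in 1 intronic cluster in the ZC3H7B library and 205 reads in 3 clusters in the ZC3H7A library, a log2 ratio of -4.86 (-6.50 to -3.62). ZNF713 had 5 and 141 reads, a log2 ratio of -4.32 (-5.97 to -3.07). The lowest read sum of any listed gene was 4 in the ZC3H7B library, so both stand at the edge of being listed. ZNF222 had 15 and 267 reads (-3.66), ZNF263, a sequence-specific transcription factor, had 17 and 278 (-3.54), and ZNF512B had 7 and 106 (-3.43). In all 5 the interval stayed beyond 2-fold with distinct reads. By mean reads per cluster it did so for ZNF444 and ZNF713 and not for the other 3, which had 7, 10 and 5 clusters in the ZC3H7A library and 2, 3 and 1 in the ZC3H7B library. These 5 were also picked by their read ratios, so the choice sets their direction and partly their calls in distinct reads. Over all genes compared 10.1% were called towards ZC3H7A in distinct reads.

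On ZNF transcripts, clusters were less often coding and more often in the 3' UTR with ZC3H7B than with ZC3H7A, and the gap was wider than on the other transcripts as a whole. Coding sequence held 1387 of 4513 ZNF clusters, 30.7% (29.4 to 32.1%), in the ZC3H7B library and 1276 of 2628, 48.6% (46.6 to 50.5%), in the ZC3H7A library. For the other genes listed in both it held 29.96% (29.7 to 30.3%) and 42.5% (42.1 to 43.0%). ZNF genes thus lay 0.775 percentage points above the other genes in the ZC3H7B library and 6.03 points above them in the ZC3H7A library. The 3' UTR held 51.7% (50.2 to 53.1%) of ZNF clusters with ZC3H7B and 33.2% (31.4 to 35.0%) with ZC3H7A, and 56.1% and 40.8% of those of the other genes. The 5' UTR held 1.73% (1.37 to 2.15%) with ZC3H7B and 5.37% (4.53 to 6.30%) with ZC3H7A, against 0.729% (0.674 to 0.787%) and 3.43% (3.26 to 3.59%) in the other genes, 2.37-fold and 1.57-fold higher on ZNF transcripts. Start codons held 0.687% and 1.22% of ZNF clusters, with intervals that overlap those of the other genes (0.660% and 1.41%) in both libraries. Stop codons held 1.33% (1.02 to 1.71%) with ZC3H7B, below the 1.89% (1.80 to 1.98%) of the other genes, and 0.989% (0.647 to 1.45%) with ZC3H7A, where the interval overlaps that of the other genes (1.44%, 1.34 to 1.56%). These shares pool clusters over genes of 1 library per protein. Their intervals treat clusters as independent and leave out the spread between genes and between libraries.

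**Figure D2:**
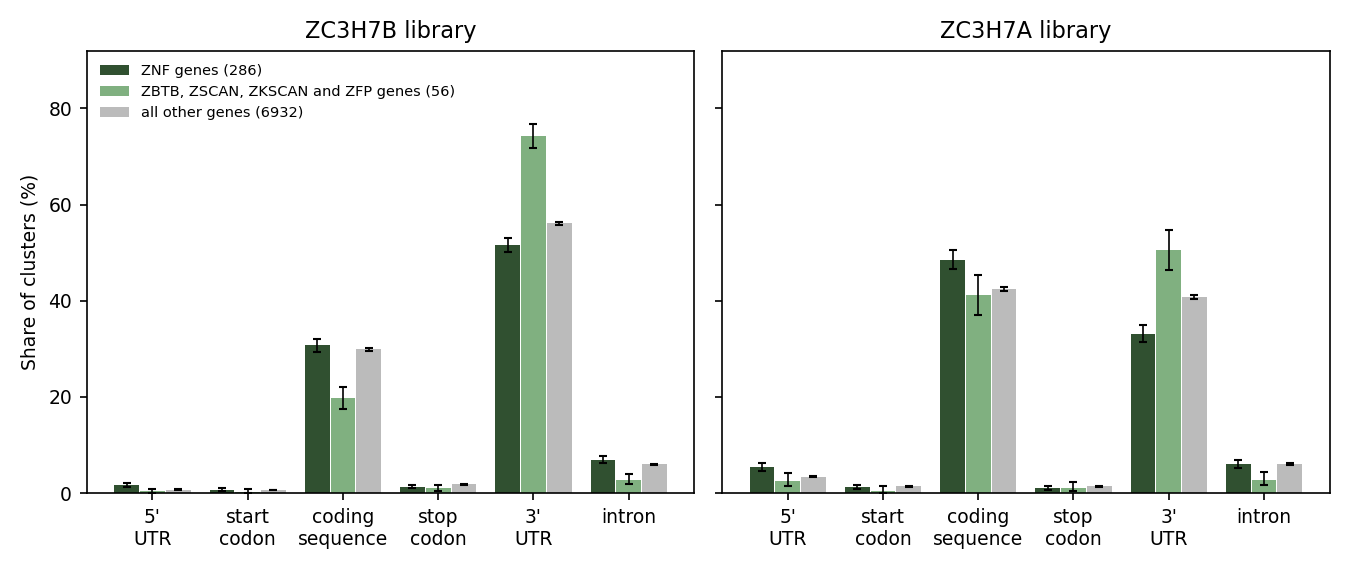
Share of clusters in each transcript region, in percent, for the ZC3H7B library (left) and the ZC3H7A library (right). Bars are the 286 ZNF genes, the 56 ZBTB, ZSCAN, ZKSCAN and ZFP genes, and all 6932 other genes listed in both libraries (which include those 56), with exact 95% intervals for counting error; the ZNF coding share is 30.7% in the left panel and 48.6% in the right one.

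Zinc finger genes with other family names gave a different picture. They were taken by name alone, and what their proteins do was not analysed here. The 56 ZBTB, ZSCAN, ZKSCAN and ZFP genes listed in both libraries had coding shares of 19.7% (17.4 to 22.2%) with ZC3H7B and 41.1% (37.1 to 45.3%) with ZC3H7A, and 74.3% and 50.5% in the 3' UTR. Their 5' UTR share was 0.355% and 2.61%. Their median log2 ratio was 0.69, against -0.19 for the ZNF genes. In both libraries the ZNF clusters were thus more often coding and less often in the 3' UTR than those of these 56 genes. The intervals do not overlap, but they leave out the spread between genes, so this is no test of the gene sets. Clusters in no named region made up 6.91% of ZNF clusters with ZC3H7B and 4.68% with ZC3H7A, against 1.51% and 1.39% for the 56 genes and 4.63% and 4.33% for all other genes.

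The shift between coding sequence and 3' UTR was present gene by gene. There were 250 ZNF genes that had 20 reads or more in both libraries. Coding clusters took a larger share with ZC3H7B in 40 of them (16.0%) and with ZC3H7A in 182 (72.8%), and 28 showed no difference. Subtracting ZC3H7A from ZC3H7B, the median gene stood at -13.0 percentage points. Among the other 5738 genes passing the same minimum, the shares were 24.0% and 59.9% and the median difference was -7.89 points. Among the ZBTB, ZSCAN, ZKSCAN and ZFP genes it was -17.8 points over 51 genes, so the ZNF difference was not the widest of these sets. For the 3' UTR share the ZNF median difference was 16.7 points and that of the other genes 9.72 points. The 5' UTR share was higher with ZC3H7B for 21 ZNF genes (8.4%) and with ZC3H7A for 79 (31.6%). In 150 it was equal, and the median difference was 0. Among the other genes 3.69% and 18.6% were higher with ZC3H7B and with ZC3H7A, also with a median difference of 0. Among the ZBTB, ZSCAN, ZKSCAN and ZFP genes the shares were 1.96% and 21.6%.

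Individual ZNF transcripts ranged from almost wholly coding to almost wholly non-coding in their clusters. In the 86 genes with at least 10 clusters in both libraries, the coding share had a median of 32.1% (range 0 to 84.6%) with ZC3H7B and 50.0% (range 0 to 94.4%) with ZC3H7A. The 2 shares of a gene went together across these 86 genes, with Pearson's r of 0.79 and Spearman's rho of 0.783, given as a description of genes that share both libraries. At the coding end were ZNF224, a KRAB repressor that binds WT1, where coding clusters were 8 of 10 with ZC3H7B and 17 of 18 with ZC3H7A, and ZNF292, with 66 of 78 and 44 of 48. ZNF644 followed with 36 of 51 and 25 of 29, ZNF30 with 8 of 11 and 8 of 10, and ZNF382 with 11 of 16 and 8 of 10, a place it shares with ZNF461, which had the same numbers.

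At the other end, clusters lay in 3' UTRs, introns or unnamed regions. ZNF516, an activator of brown fat genes, had coding clusters in 0 of 38 cases with ZC3H7B and 2 of 20 with ZC3H7A, with 35 and 17 in the 3' UTR. ZNF587 had 1 of 21 and 1 of 10 in coding sequence, and ZNF714 1 of 20 and 0 of 13. ZNF652, a repressor that works with the ETO family, had 2 of 56 and 0 of 16, and 32 of its 56 clusters with ZC3H7B fell in no named region. ZNF536, a repressor of neuronal differentiation, was instead intronic, with 50 of 59 clusters in introns with ZC3H7B and 16 of 18 with ZC3H7A. It alone supplied 15.9% and 10.1% of all intronic ZNF clusters. ZNF483, named after its values were seen, had 25 of 27 clusters in introns with ZC3H7B and 4 of 7 with ZC3H7A. The leader in 5' UTR clusters was ZNF146, also named for its values here, with 6 of its 24 clusters with ZC3H7B and 10 of 30 with ZC3H7A.

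**Figure D3:**
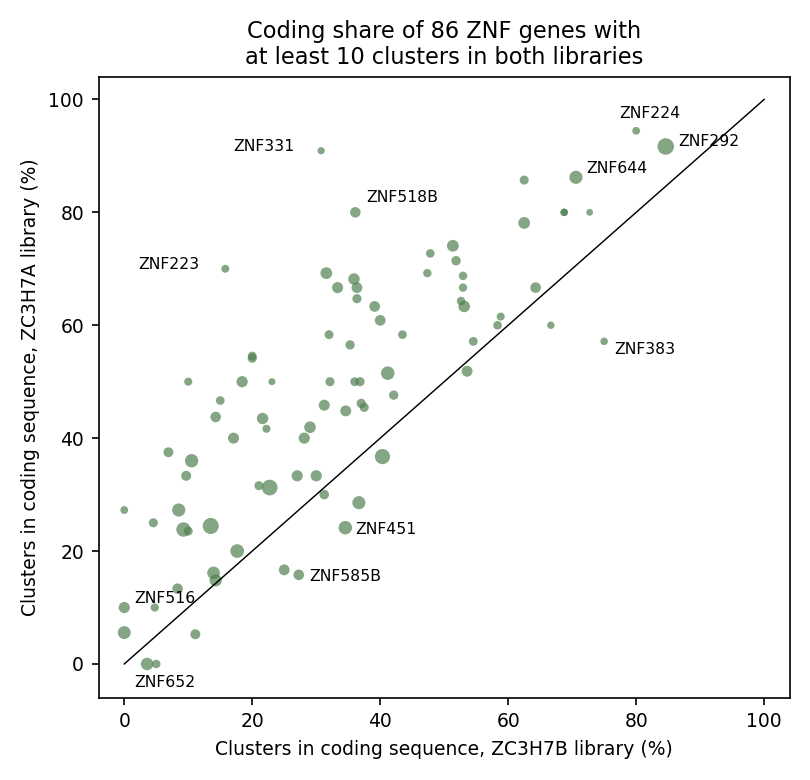
Share of a gene's clusters in coding sequence, in percent, for the 86 ZNF genes with at least 10 clusters in both libraries, with the ZC3H7B library on the x axis and the ZC3H7A library on the y axis. Point area grows with the number of clusters, the line marks equal shares, and 74 of the 86 genes (86.0%) lie above it. Of the other genes with at least 10 clusters in both libraries, 77.3% had a higher coding share with ZC3H7A.

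Of these 86 genes, 12 had a higher coding share with ZC3H7B and 74 with ZC3H7A. The largest differences towards ZC3H7A were those of ZNF331, with 4 of 13 clusters coding with ZC3H7B and 10 of 11 with ZC3H7A (-60.1 points), ZNF223, with 3 of 19 and 7 of 10 (-54.2 points), and ZNF518B, with 13 of 36 and 12 of 15 (-43.9 points). In ZNF331 and ZNF518B the other clusters with ZC3H7B were 3' UTR clusters, 9 and 23 of them, whereas 10 of the 19 ZNF223 clusters fell in no named region. The largest differences towards ZC3H7B were smaller. ZNF383 had 9 of 12 and 8 of 14 (17.9 points), ZNF585B 9 of 33 and 3 of 19 (11.5 points), and ZNF451, a SUMO ligase, 19 of 55 and 7 of 29 (10.4 points).

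Genes called towards one library also differed in where their clusters lay, among ZNF genes as among the others. The 35 ZNF genes higher in the ZC3H7B library had a coding share of 19.3% (16.0 to 22.8%) and a 3' UTR share of 68.0% (63.8 to 71.9%) among their ZC3H7B clusters. The 49 genes higher in the ZC3H7A library had 38.7% (34.5 to 42.9%) and 30.3% (26.4 to 34.4%). Read in the ZC3H7A library, the same 2 sets had coding shares of 35.3% (26.7 to 44.8%) and 53.3% (49.1 to 57.4%). Their 3' UTR shares there were 48.3% (38.9 to 57.7%) and 19.8% (16.6 to 23.3%). Among the other genes, those higher in the ZC3H7B library had coding shares of 23.7% with ZC3H7B and 30.3% with ZC3H7A, and those higher in the ZC3H7A library 38.8% and 50.0%. Their 3' UTR shares were 66.1% and 57.5% in the set higher in the ZC3H7B library and 42.6% and 28.5% in the set higher in the ZC3H7A library. The sets were chosen by the same reads that make up the clusters, so these shares describe them and test nothing.

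ZNF genes were then divided by their place in the genome, using the order of protein-coding genes that RefSeq gives for GRCh38.p14. All 286 names matched, 283 directly and 3 through an older symbol, and 5 are pseudogenes in that table. A run is a stretch of adjacent coding genes that all carry a ZNF name. Of the genes, 191 lay in a run of 2 or more and 89 stood alone. The rest, in neither set, were the 5 pseudogenes and ZNF259, a coding gene now named ZPR1. The 89 solitary genes had a median log2 ratio of 0.30, with 16 (18.0%) higher in the ZC3H7B library and 14 (15.7%) in the ZC3H7A library, and the 191 genes in runs had a median of -0.26, with 16 (8.38%) and 34 (17.8%). Over all genes compared these shares were 18.2% and 18%, so the share of run genes towards ZC3H7B was the one that lay well below the background. In distinct reads the medians were 0.46 and -0.22. The coding share of the genes in runs was 31.1% with ZC3H7B and 50.3% (47.9 to 52.7%) with ZC3H7A, and that of the solitary genes 31.0% and 45.8% (42.6 to 49.1%), with overlapping intervals. The 5' UTR share was 2.04% and 5.95% in runs and 1.28% and 4.35% outside them, with overlapping intervals in each library. Intronic clusters with ZC3H7B made up 5.32% (4.51 to 6.23%) in runs and 9.80% (8.43 to 11.3%) outside. The solitary genes ZNF536 and ZNF483 held 50 and 25 of the 168 intronic clusters outside runs, and without them, an omission made after seeing the data, the share there was 5.71% (4.64 to 6.95%).

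Of the 9 runs with at least 5 of these genes, 7 had a median log2 ratio below 0 and 2 above it. The lowest median, -0.99, was that of the run from ZNF283 to ZNF180, where 19 of 20 genes were listed in both libraries. It is described further because of this median, so its values support nothing beyond themselves. In this run 0 genes were higher in the ZC3H7B library and 9 (47.4%) in the ZC3H7A library, beside 18.2% and 18% of all genes compared. With distinct reads the counts were 0 and 6, beside a background of 7.28% and 10.1%. By mean reads per cluster they were 0 and 1, beside 6.18% and 4.65%. By clusters they were 0 and 0, beside 0.321% and 0.223%, and with library totals 1 and 7, beside 21.2% and 15.5%. Clusters of the run lay in coding sequence in 48.8% (42.9 to 54.7%) of cases with ZC3H7B and 67.0% (60.5 to 73.0%) with ZC3H7A, both above the values of all ZNF genes. The run from ZNF566 to ZNF793, with 19 genes also, had a median of -0.30. In it 0 and 3 genes (0% and 15.8%) were called with reads, and the share towards ZC3H7A was close to the background. Its coding shares were 34.5% (30.6 to 38.5%) and 47.0% (42.0 to 52.1%).

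**Figure D4:**
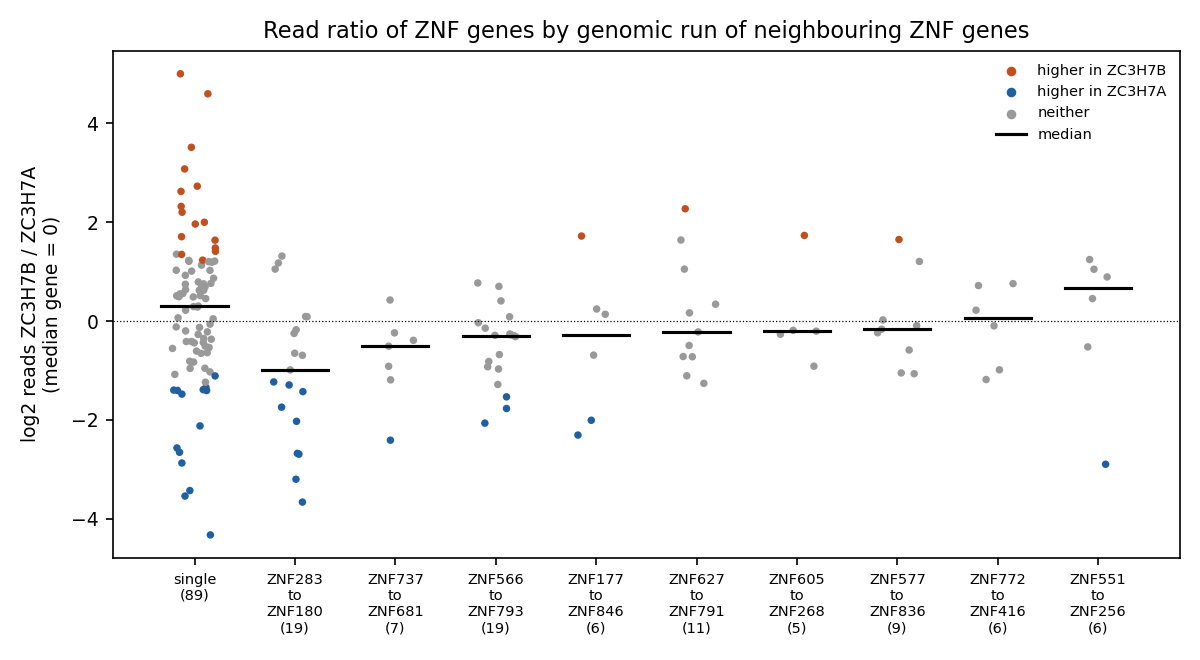
Log2 ratio of reads, ZC3H7B over ZC3H7A with the median gene at 0, for the 89 solitary ZNF genes and for the genes of each of the 9 runs of neighbouring ZNF genes with at least 5 listed, ordered by median (bars). Each point is a gene, coloured by its call, and the run from ZNF283 to ZNF180 lies lowest with a median of -0.99.

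Within the run, neighbours differed widely. ZNF224 had 98 reads in the ZC3H7B library and 1266 in the ZC3H7A library, a log2 ratio of -3.20 (-3.51 to -2.90), and its neighbour ZNF225 had 84 and 755 reads (-2.68). ZNF221 had 88 and 800 reads (-2.69), ZNF233 49 and 281 (-2.03), and ZNF226 290 and 1364 (-1.74). ZNF222, described above, was the lowest. For these 6 genes the interval also lay beyond 2-fold in distinct reads, while ZNF155 (290 and 1097 reads), ZNF180 (461 and 1588) and ZNF283 (205 and 677) had it in reads alone. The other 10 genes of the run had no call, and 5 of them lay below the median gene. ZNF227, the best covered, had 1411 and 3116 reads (-0.65), ZNF235 81 and 226 (-0.99) and ZNF223 208 and 473 (-0.69). Of those above it, ZNF45 had 616 and 813 (0.09) and ZNF234 357 and 472 (0.09). ZNF404, with 145 and 82 reads, was the highest at 1.32 (0.91 to 1.72), before ZNF229 at 1.18 and ZNF112 at 1.05. These genes are paralogs, and how reads that match several copies were assigned is not given in the sources used here.

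**Figure D5:**
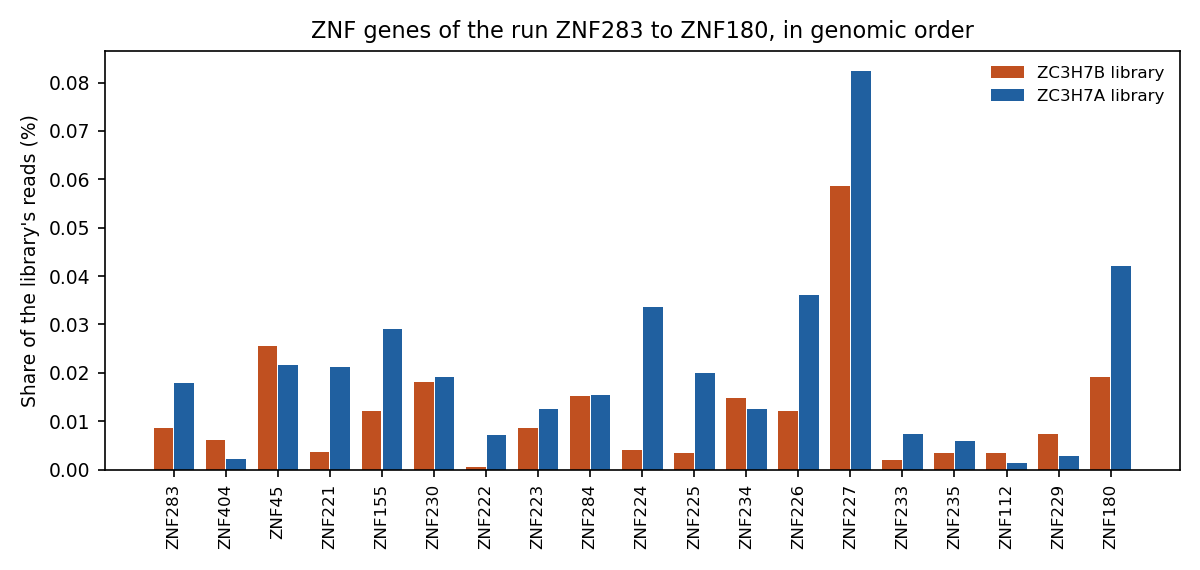
Share of each library's reads, in percent, on the 19 genes of the run from ZNF283 to ZNF180 that were listed in both libraries, in genomic order. For each gene the ZC3H7B library is on the left and the ZC3H7A library on the right; ZNF224 takes 0.00407% and 0.0335%, and ZNF227 is highest in both.

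A few name pairs that differ in their last letter were covered in both libraries. ZNF585A and ZNF585B had 1894 and 1320 reads in the ZC3H7B library and 2942 and 1142 in the ZC3H7A library, with log2 ratios of -0.14 and 0.70. ZNF780A and ZNF780B stood at 0.53 and 0.10, ZNF33A and ZNF33B at 0.02 and 0.52, and ZNF280B and ZNF280C at 1.22 and 0.75. ZNF354A and ZNF354B were apart from each other, with 81 and 45 reads with ZC3H7B and 20 and 318 with ZC3H7A, at log2 ratios of 2.51 (1.79 to 3.30) and -2.33 (-2.81 to -1.87). With distinct reads the interval of ZNF354A was no longer beyond 2-fold, as it had 3 distinct reads in the ZC3H7A library.

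ZNF genes with roles outside transcription were a small group. Of 10 factors of RNA and ribosomes, 7 were listed in both libraries, with 0 higher in the ZC3H7B library and 2 in the ZC3H7A library, beside 18.2% and 18% of all genes, and a median log2 ratio of -0.41. So few genes cannot be set apart from that background. The 2 were ZNF326, a subunit of the DBIRD complex that couples transcription to splicing, with 317 and 1181 reads (-1.40), and ZNF330, a nucleolar protein, with 171 and 633 (-1.40), and neither had an interval beyond 2-fold in distinct reads. ZNF207, which binds BUB3 and microtubules in mitosis, had 1761 and 3299 reads (-0.41), where the 3' UTR held 38 of 51 and 23 of 35 clusters. ZNF638, a nuclear matrix protein, had 329 and 380 reads (0.28), and no 3' UTR cluster, and its coding clusters were 21 of 29 and 6 of 9. ZNF106 had 745 and 514 reads (1.03). ZNF346, which binds double-stranded RNA, had 176 and 97 (1.35) and no coding cluster among 16 and 5. ZNF622, a factor of the large ribosomal subunit, had 54 and 179 (-1.24). ZNF706 was listed for ZC3H7B alone with 6 reads, ZNF593 for ZC3H7A alone with 76, and ZNF385A for neither.

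ZNF473 belongs beside these, and was named after its values were seen. It encodes a component of the U7 ribonucleoprotein that processes histone transcripts. It had 1156 reads in the ZC3H7B library and 692 in the ZC3H7A library, a log2 ratio of 1.23 (1.10 to 1.37), and its coding clusters were 15 of 24 and 12 of 14. In distinct reads its ratio was 0.75, no longer beyond 2-fold.

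Transcription factors with defined partners gave single values. Of the Z3 complex, which works with the chromatin reader ZMYND8, ZNF592 had 471 and 100 reads, a log2 ratio of 2.73 (2.41 to 3.05), with 19 of 26 and 2 of 3 clusters in the 3' UTR, and ZNF687 had 137 and 407 (-1.08), called in neither direction. ZNF532 was listed for neither library. ZNF148 had 529 and 522 reads (0.51) and its close relative ZNF281 1033 and 2133 (-0.55), with 9 of 28 and 5 of 10 clusters coding in ZNF148 and 19 of 37 and 20 of 27 in ZNF281. ZNF143, an activator at promoters, had 56 and 95 reads (-0.27), and its relative ZNF76 was not among the genes listed in both.

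The partners of KRAB proteins, none of them ZNF genes, were listed in both libraries in 15 of 15 cases. Of all genes listed for ZC3H7B 78.8% were listed in both, and of those listed for ZC3H7A 88.0%. With reads, 2 were higher in the ZC3H7B library and 3 in the ZC3H7A library, beside the background of 18.2% and 18%, and their median log2 ratio was 0.19. TRIM28, the corepressor itself, had 208 reads in the ZC3H7B library and 1594 in the ZC3H7A library (-2.45, -2.66 to -2.24), and all 11 of its clusters with ZC3H7B and 19 of 27 with ZC3H7A were coding. ATF7IP, a cofactor of SETDB1, had 370 and 2675 reads (-2.36) and the remodeller SMARCAD1 50 and 315 (-2.16). MORC2, an ATPase that works with the HUSH silencing complex, had 187 and 23 reads (3.52), and FAM208A, a HUSH subunit also called TASOR, had 280 and 120 (1.72). SETDB1, with 173 and 194 reads, stood at 0.33 and was called in neither direction. The best covered partner, CBX5, had 7035 and 15903 reads (-0.68) and was also called in neither direction. With distinct reads SMARCAD1 lost its call and the other 4 kept theirs. By mean reads per cluster ATF7IP and SMARCAD1 kept theirs, and TRIM28, MORC2 and FAM208A did not. MORC2 had 2 distinct reads in 1 cluster in the ZC3H7A library, so its level there rests on very few distinct reads.

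T-to-C conversion on ZNF clusters was much like that on other genes. The mean share of converted reads over ZNF clusters was 89.97% with ZC3H7B and 93.1% with ZC3H7A, against 89.93% and 93.3% for the other genes. No ZNF gene had a mean below 50% in either library. The lowest were ZNF429 at 68.4% with ZC3H7B and ZNF202 at 51.4% with ZC3H7A. A mean of 100% was reached by 19 ZNF genes (6.64%) with ZC3H7B and 80 (28.0%) with ZC3H7A, against 9.58% and 34.0% of the other genes. Few distinct reads make such a mean easier to reach. Their median was 88 and 21 on ZNF genes and 73 and 16 on the others, and their part in these shares was not tested. The cluster caller's threshold on conversion is not given, so the values cannot show how much conversion uncalled sites had.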

How the data were processed

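The HEK293 PAR-CLIP libraries were grouped by the tagged protein in the sample titles. The submitters' processing notes name STAR 2.5.2a, Bowtie, cutadapt and the build hg19. Which program called clusters, and with what cutoffs, is not given in the sources used here. For each library the authors deposited 1 table. Its counts are, per the file headers, clusters per gene, reads and distinct reads summed over clusters, and clusters per region, with start and stop codons given as further such numbers. The exon column was read as coding sequence. The deposited fraction is the median T-to-C fraction over clusters, and its sum over clusters, a score here, gave the mean per cluster. Rows naming a repeat, tRNA or small RNA class were left out (407 of 9566 for ZC3H7B with 1.51% of reads, 282 of 8486 for ZC3H7A with 1.57%).

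The members and lists were chosen with earlier results of these data known. A ratio's interval is the exact binomial interval of its reads given their sum. With 1 library per protein no test was made. The rule for named genes took the 10 leading genes per library, the 5 highest and 5 lowest ratios from 100 reads summed, and from 10 clusters in both libraries the 5 highest and 5 lowest coding shares and the 3 largest differences each way, plus the lists named. Distinct reads, mean reads per cluster, clusters, library totals, TMM factors and other minimums were the alternatives. Computation used scipy 1.17.1, numpy 2.4.6 and pandas 2.3.3 in Python 3.11.15, matplotlib 3.10.9 for plots, and edgeR 4.0.16 in R 4.3.3 for scaling only. The ratio step was checked on simulated counts of independent reads, so the check does not cover repeated reads. The planned KRAB and finger comparisons were not run, as no protein sequences were used here.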

Additional observations from a re-analysis of the deposited data

How the results depend on the processing

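Depth limits these values through the few distinct reads of the ZC3H7A library, where 19 ZNF genes had 2. No paired analysis was possible because each group has 1 library, which also leaves no replicate to omit. The 35 genes higher in the ZC3H7B library and 49 higher in the ZC3H7A library became 10 and 29 (distinct reads), 12 and 13 (mean reads in a cluster) and 2 and 1 (clusters). They were 45 and 41 with library totals, which shift the median of all genes by 0.16 (log2) and turn which side holds more, and 34 and 50 with TMM. The ZNF median of -0.19 was -0.018 by distinct reads, 0.00424 by mean reads per cluster and -0.030 by library totals. The coding share in the ZC3H7B and ZC3H7A libraries was 33.5% and 51.7% as a mean over genes with at least 3 clusters, and 33.02% and 50.9% of clusters in a named region. The 3' UTR share was 49.0% and 29.7% as a mean over genes, and 55.5% of named clusters with ZC3H7B. The share was higher with ZC3H7A for coding sequence and with ZC3H7B for the 3' UTR under each of these, and also without ZNF711, an alternative chosen after seeing the data. The median coding difference within genes was -13.7 and -13.6 points with at least 3 and 10 clusters. Of the 49 ZNF genes named by the rule above, 18 were called with reads, and genes named outside it are not counted here. Of these 18, 4 lost the call by distinct reads, 12 by the mean per cluster and 17 with clusters. Among the 12 was ZNF711, which turned to 0.21. The cause of these changes was not tested.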

Other observations

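Genes of the ZNF name pattern listed for a single library were few and shallow. There were 37 for ZC3H7B, with a median of 21 reads, and 31 for ZC3H7A, with a median of 31 reads. Of the ZNF genes listed, 88.5% of 323 for ZC3H7B and 90.2% of 317 for ZC3H7A were listed in both libraries, against 78.8% and 88.0% of all genes. Absence from a library's table means that no cluster was called, and reads outside clusters were not analysed here. The best covered for ZC3H7B was ZNF608, with 156 reads in 12 clusters, 9 of them in coding sequence, and for ZC3H7A it was ZNF565, with 304 reads in 5 clusters, all in coding sequence. ZNF394, with 148 reads for ZC3H7A, had all 3 of its clusters in coding sequence, and ZNF22, with 114 reads for ZC3H7B, had 8 of 9 in the 3' UTR.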
